A study of Homo sapiens with 12 samples.

Results

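The glypicans and syndecans are the membrane-bound heparan sulfate proteoglycans of the cell surface. Their 10 human genes, GPC1 to GPC6 and SDC1 to SDC4, were taken by symbol from 60604 gene identifiers in a table of read counts, and all 10 passed the filter on low counts that left 19662 genes for testing. The family was taken whole, and it was selected on one measured value, the lower level of GPC3 in transfected cells than in cells without plasmid. Values of GPC3 against cells without plasmid are therefore given as a description, without a test.

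RNA was sequenced from HEK293T cells, a line derived from human embryonic kidney that expresses a viral large T antigen. The first group received the vector sgRNA-dCas9-VP160-P2A-EGF with 6 CD34-gRNAs, the second received sgRNA-dCas9-VP160-P2A-EGF without guides, and the third received no plasmid. In dCas9-VP160 a nuclease-dead Cas9 carries a transcription activator of viral origin, and the guides direct it to the promoter of CD34, a surface glycoprotein of blood progenitors. Transfected dishes received 5.4 pmol of plasmid in all and were kept for 48 h. The cells without plasmid appear in the labels once as non-transfected and once as treated with reagents alone. Each group has 4 libraries, made of 2 technical replicates from each of 2 experiments on separate batches of cells. A plasmid without dCas9-VP160 was not part of the design, so effects of plasmid and of protein cannot be told apart. All samples come from 1 cell line. For differences between groups, p-values describe how far these differences varied between its 2 batches, a spread moderated over all genes.

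Glypicans hang from the outer face of the membrane on a glycosylphosphatidylinositol (GPI) anchor, and syndecans cross the membrane with a single helix and a short cytoplasmic tail. Both carry chains of heparan sulfate, a sulfated sugar polymer that binds growth factors, WNT and hedgehog proteins, chemokines and matrix proteins and holds them near their receptors. GPC3 is prominent in the fetal kidney and liver, and its loss causes the overgrowth disorder Simpson-Golabi-Behmel syndrome.

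The 12 libraries held 6750035 to 11932244 gene counts. The target of the guides, CD34, stood at 99.3 ± 4.15 CPM (a gene's read count scaled to a common library total) with guides, at 0.887 ± 0.0171 CPM with dCas9-VP160 alone and at 2.06 ± 6.9e-04 CPM without plasmid (SD, n = 2 experiments). Of 8 markers of the HEK293 line 7 averaged at least 1 CPM (PAX2 did not), and their summed level ran from 2055 to 2151 CPM with guides, from 2036 to 2209 with dCas9-VP160 alone and from 1835 to 1982 without plasmid. Of 16 markers of other cell types 5 reached 1 CPM and HBB was at 0. Their sum ran from 36.5 to 40.4 CPM with guides, from 33.02 to 41.5 with dCas9-VP160 alone and from 39.9 to 41.8 without plasmid, and any part of these shifts in the results below was not tested. Spike-in sequences took 0.719% and 0.404% of the counts in the first and second replicate of experiment 1 without plasmid and at most 0.00818% elsewhere. They were left out of all totals. These are bulk samples, so fewer cells with a transcript and less transcript per cell cannot be told apart.

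Promoter sequences are shown for the syndecans that were higher in transfected cells (SDC4 and SDC1) and for a pair of glypicans that were lower (GPC4 and GPC6), because members moved in opposite directions. They are the 250 bases before the start of transcription in RefSeq on GRCh38.p14, written 5′ to 3′ along the gene, and capitals mark matches to the motifs named below. RefSeq starts were found for 8 of the 10 members, GPC3 and SDC2 being the exceptions. The motifs were chosen after the values had been seen.
SDC4, chr20:45348425-45348674, minus strand: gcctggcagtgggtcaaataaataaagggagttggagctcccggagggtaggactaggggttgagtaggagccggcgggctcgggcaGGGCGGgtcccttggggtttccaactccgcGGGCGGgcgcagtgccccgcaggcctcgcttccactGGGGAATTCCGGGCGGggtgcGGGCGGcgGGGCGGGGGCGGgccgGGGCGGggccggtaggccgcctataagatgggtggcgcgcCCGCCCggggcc
SDC1, chr2:20225131-20225380, minus strand: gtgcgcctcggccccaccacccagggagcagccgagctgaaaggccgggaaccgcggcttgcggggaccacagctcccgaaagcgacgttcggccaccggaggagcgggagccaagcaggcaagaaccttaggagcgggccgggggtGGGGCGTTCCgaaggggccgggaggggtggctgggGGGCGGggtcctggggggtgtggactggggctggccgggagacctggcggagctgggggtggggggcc
GPC4, chrX:133415490-133415739, minus strand: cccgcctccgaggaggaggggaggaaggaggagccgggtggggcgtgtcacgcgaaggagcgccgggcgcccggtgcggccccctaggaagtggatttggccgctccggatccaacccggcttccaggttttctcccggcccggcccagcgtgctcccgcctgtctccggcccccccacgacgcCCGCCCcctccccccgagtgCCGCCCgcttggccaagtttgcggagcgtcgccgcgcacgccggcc
GPC6, chr13:93226557-93226806, plus strand: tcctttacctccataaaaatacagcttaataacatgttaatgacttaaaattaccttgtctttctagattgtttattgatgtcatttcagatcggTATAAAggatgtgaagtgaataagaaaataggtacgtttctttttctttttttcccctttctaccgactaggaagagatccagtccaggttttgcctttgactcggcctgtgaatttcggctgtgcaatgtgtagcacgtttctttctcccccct
The GC box (GGGCGG, either strand) is the usual site of the factor SP1. Within the window from 250 bases before to 50 bases after the start, it matched 8 times in SDC4, once in SDC1, 2 times in GPC4 and not in GPC6. It matched 6 times in SDC3, 4 times in GPC1 and 3 times each in GPC2 and GPC5, all lower in transfected cells, and 45.0% of 35116 promoters of the same length hold it. The consensus of the transcription factor NF-kB matched once in SDC4, 97 bases before the start, and once in SDC1, 103 bases before it. The SDC1 start shown is the one of its 2 listed starts with that match. No other matched member held this consensus, and 11.3% of all promoters do. In SDC4 a GC box follows the NF-kB match directly. The TATA box (TATAAA) matched in GPC6 155 bases before the start and in GPC5 242 bases before it, against 11.5% of all promoters. No matched member held TGANTCA (the AP-1 motif, 7.71% of promoters), TGACGTCA (ATF and CREB factors, 1.85%), TGATGNAA (the composite element of ATF4, 3.62%) or the E-box CACGTG (7.26%). The GC content of the 250 bases was 73.6% in SDC4, 75.2% in SDC1, 76.0% in GPC4 and 37.6% in GPC6. A match is a string of letters and not a measured binding site.

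Against cells without plasmid, both groups of transfected cells had less transcript of every glypican and of SDC2 and SDC3, and more of SDC1 and SDC4. With guides 8 members were lower and 2 higher by the edgeR test, where 52.6% of all 19662 genes were called (26.7% higher and 25.9% lower). With dCas9-VP160 alone the count was likewise 8 lower and 2 higher, where 51.2% of all genes were called (26.6% higher and 24.6% lower). The choice of the family used these comparisons, and the counts and the medians that follow include GPC3, so nothing is read from either. The median log2 fold change over the members was -0.57 with guides and -0.63 with dCas9-VP160 alone, against medians over all genes of -0.02 with guides and -0.002 with dCas9-VP160 alone. Both comparisons use the same libraries without plasmid, so they are not separate evidence.

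**Figure D1:**
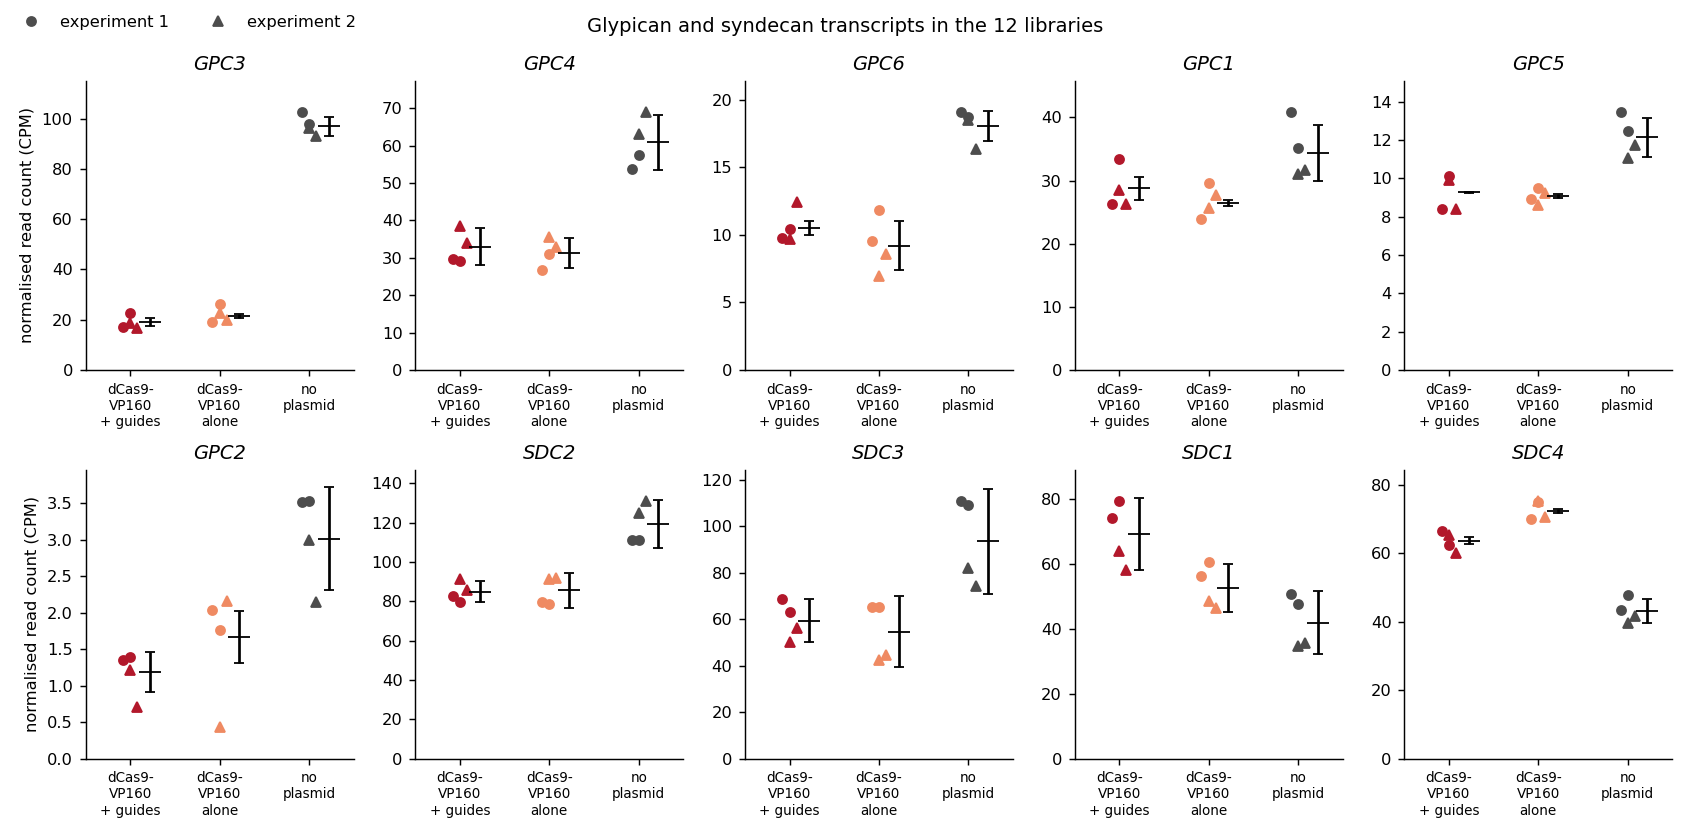
Normalised read count (CPM, from 0) of each member in each library, with circles for experiment 1 and triangles for experiment 2, and the mean ± SD of the 2 experiments beside them. For GPC3 the transfected libraries lie between 16.7 and 26.1 CPM and those without plasmid between 93.2 and 102.7 CPM.

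GPC3 (ENSG00000147257, chromosome X, 133535745 to 133985895, minus strand, GRCh38), a glypican that restrains hedgehog signalling, held 17.2 and 22.8 CPM with guides in experiment 1 and 18.7 and 16.7 CPM in experiment 2. With dCas9-VP160 alone it held 19.2 and 26.1 CPM in experiment 1 and 22.5 and 19.9 CPM in experiment 2. Without plasmid it held 102.7 and 98.0 CPM in experiment 1 and 96.5 and 93.2 CPM in experiment 2. All 8 transfected libraries lay far below all 4 libraries without plasmid, and the 2 transfected groups overlapped. The level was thus 5.11-fold lower with guides than without plasmid (log2 fold change -2.35, SE 0.07) and 4.51-fold lower with dCas9-VP160 alone (-2.17, SE 0.06). In the single experiments the log2 fold changes were -2.30 and -2.40 with guides and -2.18 and -2.16 with dCas9-VP160 alone. Among 12875 genes with a mean of at least 5 CPM, GPC3 ranked lowest in log2 fold change with dCas9-VP160 alone and 2nd lowest with guides. GPC3 is also the only member in the authors' deposited table of 97 genes. That table gives it log2 fold changes of -2.40 (SE 0.0918) with guides and -2.17 (SE 0.0872) with dCas9-VP160 alone, under column names that put the control first, and in it a negative value goes with a lower level in transfected cells.

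GPC4 (ENSG00000076716, chromosome X, 133300103 to 133415490, minus strand), a glypican that binds WNT and fibroblast growth factors, held 29.7, 29.1, 38.5 and 33.9 CPM with guides, listed as replicates 1 and 2 of experiment 1 and then of experiment 2. In the same order it held 26.7, 31.0, 35.5 and 32.9 CPM with dCas9-VP160 alone, and 53.8, 57.5, 63.0 and 69.0 CPM without plasmid. No transfected library reached the level of any library without plasmid. GPC4 fell with guides (log2 fold change -0.89, SE 0.06, adjusted p = 5.64e-12) and with dCas9-VP160 alone (-0.96, SE 0.06, adjusted p = 1.15e-12) against no plasmid.

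GPC6 (ENSG00000183098, chromosome 13, 93226842 to 94407401, plus strand), which stimulates hedgehog signalling in the growth plate, held 9.74, 10.4, 9.70 and 12.4 CPM with guides in the same library order. It held 9.58, 11.9, 6.99 and 8.59 CPM with dCas9-VP160 alone, and 19.1, 18.7, 18.5 and 16.3 CPM without plasmid. The transfected libraries again all lay below those without plasmid. GPC6 fell by 0.78 on the log2 scale with guides (SE 0.11, adjusted p = 1.24e-06) and by 0.98 with dCas9-VP160 alone (SE 0.11, adjusted p = 3.61e-08).

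GPC1 (ENSG00000063660, chromosome 2, 240435671 to 240468078, plus strand), a co-receptor of fibroblast growth factors, changed least among the glypicans. It held 26.3, 33.5, 28.6 and 26.2 CPM with guides, 23.9, 29.6, 25.7 and 27.7 CPM with dCas9-VP160 alone and 40.9, 35.2, 31.1 and 31.6 CPM without plasmid. The second library with guides in experiment 1 lay above both libraries of experiment 2 without plasmid, whereas every library with dCas9-VP160 alone lay below every library without plasmid. GPC1 was lower than without plasmid with guides (log2 fold change -0.26, SE 0.08, adjusted p = 0.00666) and with dCas9-VP160 alone (-0.37, SE 0.08, adjusted p = 2.31e-04). With guides the call was lost without the first library of experiment 1 without plasmid (-0.19, adjusted p = 0.0564), without the first library of experiment 1 with guides (-0.19, adjusted p = 0.0820) and without all first replicates (-0.16, adjusted p = 0.227). It was also lost in DESeq2 (-0.25, adjusted p = 0.112), without the experiment as a block (-0.26, adjusted p = 0.118) and without experiment 1 (-0.19, adjusted p = 0.172). With dCas9-VP160 alone it was lost without all first replicates (-0.21, adjusted p = 0.0941) and without experiment 1 (-0.23, adjusted p = 0.0879).

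GPC5 (ENSG00000179399, chromosome 13, 91398607 to 92873682, plus strand), known for promoting hedgehog signalling in rhabdomyosarcoma, held 8.38, 10.1, 9.93 and 8.41 CPM with guides. It held 8.90, 9.52, 8.63 and 9.26 CPM with dCas9-VP160 alone and 13.5, 12.5, 11.1 and 11.8 CPM without plasmid. No transfected library reached a library without plasmid. The log2 fold change was -0.39 with guides (SE 0.11, adjusted p = 0.00577) and -0.42 with dCas9-VP160 alone (SE 0.11, adjusted p = 0.00298), and DESeq2 called neither (adjusted p = 0.129 and 0.0886 in the same order). Both calls were also lost without all first replicates (adjusted p = 0.058 with guides and 0.0661 with dCas9-VP160 alone) and without experiment 1 (0.152 and 0.0875 in the same order).

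GPC2 (ENSG00000213420, chromosome 7, 100169606 to 100177372, minus strand), a glypican of the developing nervous system, was the rarest member. Its counts were 12, 13, 11 and 5 with guides, 21, 12, 4 and 26 with dCas9-VP160 alone and 30, 40, 26 and 23 without plasmid. These gave 0.713 to 1.40 CPM with guides, 0.437 to 2.17 CPM with dCas9-VP160 alone and 2.15 to 3.54 CPM without plasmid. The group with guides lay wholly below the group without plasmid, and the group with dCas9-VP160 alone overlapped it. GPC2 fell by 1.34 on the log2 scale with guides (SE 0.26, adjusted p = 7.87e-05) and by 0.85 with dCas9-VP160 alone (SE 0.23, adjusted p = 0.00333). The value with dCas9-VP160 alone rested on few counts, being -0.44 from the second replicates (adjusted p = 0.313), -1.37 and still called from the first replicates, and not called in DESeq2 (adjusted p = 0.126) or without experiment 1 (-0.84, adjusted p = 0.0962).

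Among the syndecans, SDC2 and SDC3 fell in transfected cells and SDC1 and SDC4 rose. SDC2 (ENSG00000169439, chromosome 8, 96493351 to 96611780, plus strand), the main syndecan of mesenchymal cells, held 82.6, 79.5, 91.2 and 85.9 CPM with guides. It held 79.4, 78.9, 91.5 and 92.1 CPM with dCas9-VP160 alone and 111.1, 111.3, 125.1 and 131.2 CPM without plasmid. The transfected libraries lay below all those without plasmid. The log2 fold change was -0.49 with guides (SE 0.05, adjusted p = 2.48e-09) and -0.48 with dCas9-VP160 alone (SE 0.05, adjusted p = 3.12e-09).

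SDC3 (ENSG00000162512, chromosome 1, 30869467 to 30908761, minus strand), the syndecan of neural tissue, held 68.6, 63.0, 50.2 and 56.4 CPM with guides. It held 65.3, 65.4, 42.5 and 44.7 CPM with dCas9-VP160 alone and 111.0, 109.2, 81.9 and 74.2 CPM without plasmid. Both transfected groups lay below the group without plasmid and overlapped each other, and experiment 2 stood below experiment 1 in all 3 groups. SDC3 fell by 0.65 on the log2 scale with guides (SE 0.06, adjusted p = 4.44e-10) and by 0.78 with dCas9-VP160 alone (SE 0.06, adjusted p = 1.50e-11).

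SDC1 (ENSG00000115884, chromosome 2, 20200797 to 20225433, minus strand), the syndecan of epithelia and plasma cells, held 74.3, 79.6, 64.0 and 58.2 CPM with guides. It held 56.2, 60.6, 48.7 and 46.5 CPM with dCas9-VP160 alone and 50.8, 47.7, 34.8 and 35.6 CPM without plasmid. Libraries with guides lay above all those without plasmid, and those with dCas9-VP160 alone lay above those without plasmid within each experiment but overlapped them across experiments. SDC1 rose by 0.73 on the log2 scale with guides (SE 0.06, adjusted p = 1.50e-10) and by 0.34 with dCas9-VP160 alone (SE 0.06, adjusted p = 6.37e-05). Without the experiment as a block the value with dCas9-VP160 alone was 0.33 and not called (adjusted p = 0.184).

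SDC4 (ENSG00000124145, chromosome 20, 45325288 to 45348424, minus strand), a broadly expressed syndecan of focal adhesions, held 66.3, 62.4, 65.4 and 60.0 CPM with guides. It held 69.9, 75.0, 75.3 and 70.7 CPM with dCas9-VP160 alone and 43.3, 47.7, 39.7 and 41.8 CPM without plasmid. The 3 groups did not overlap, with dCas9-VP160 alone highest and no plasmid lowest. SDC4 rose by 0.56 on the log2 scale with guides (SE 0.06, adjusted p = 1.61e-08) and by 0.75 with dCas9-VP160 alone (SE 0.06, adjusted p = 5.52e-11) against no plasmid.

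**Figure D2:**
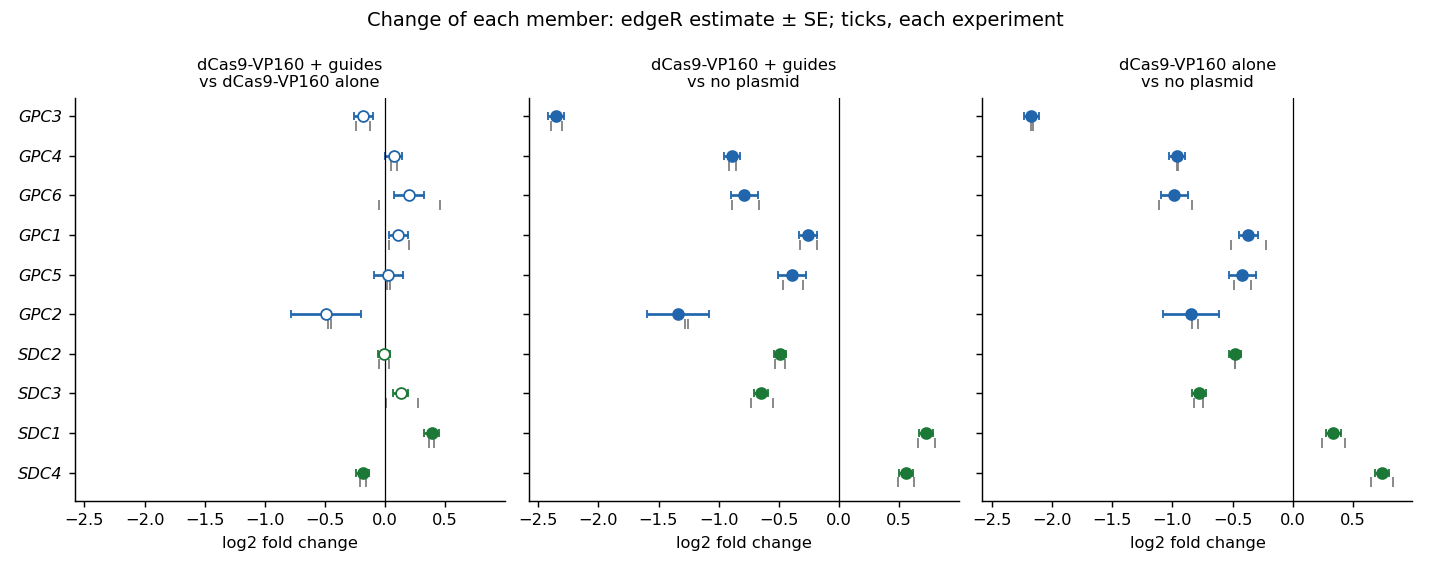
Log2 fold change (edgeR estimate ± SE) of each member in the 3 comparisons between groups, glypicans in blue and syndecans in green, filled where called, with ticks for experiments 1 and 2. In both comparisons against no plasmid the 6 glypicans lie left of 0 and SDC1 and SDC4 right of it, and with guides against dCas9-VP160 alone only SDC1 (0.39) and SDC4 (-0.19) are filled. GPC3 is filled against no plasmid, although no test is taken from it there.

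Counted by library, 7 members with guides lay wholly below the libraries without plasmid, 2 lay wholly above and GPC1 overlapped, where 38.9% of all genes did not overlap (19.8% higher and 19.1% lower). With dCas9-VP160 alone 7 members lay wholly below, SDC4 wholly above, and GPC2 and SDC1 overlapped, where 37.1% of all genes did not overlap (19.3% higher and 17.7% lower). GPC3, treated as the member that led to the choice of the family, is among the 7 in each case, so nothing is read from these counts.

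Adding the guides to dCas9-VP160 moved SDC1 and SDC4 in opposite directions and left the other 8 members uncalled, where 7.56% of all genes were called (4.16% higher and 3.41% lower). SDC1 rose to 69.3 ± 11.2 CPM with guides, against 52.8 ± 7.44 CPM with dCas9-VP160 alone (SD, n = 2). The log2 fold change was 0.39 (SE 0.06, adjusted p = 1.31e-04), or 1.31-fold, with 0.41 in experiment 1 and 0.37 in experiment 2. Across experiments the libraries overlapped, since the lower ones with guides came from experiment 2, and without the experiment as a block SDC1 was not called (0.40, adjusted p = 0.653). That setting called 1 of all 19662 genes in this comparison. DESeq2 called SDC1 higher.

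SDC4 was lower with guides, at 63.7 ± 1.03 CPM against 72.4 ± 0.527 CPM with dCas9-VP160 alone (log2 fold change -0.19, SE 0.06, adjusted p = 0.0468), and it was the member whose libraries did not overlap, where 8.55% of all genes did not (4.49% higher and 4.07% lower). The call stood at the edge of the threshold. It was lost in 16 of 26 alternatives, with adjusted p-values up to 0.693 and log2 fold changes between -0.25 and -0.14. Those included DESeq2 (adjusted p = 0.423), RLE size factors (adjusted p = 0.0600) and each experiment taken alone. Leaving out any one of 8 libraries also ended it, namely both libraries of experiment 1 with guides, the second of experiment 2 with guides, the second of experiment 1 and both of experiment 2 with dCas9-VP160 alone, and the first of experiment 1 and the second of experiment 2 without plasmid.

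Among the 6 glypicans edgeR called 0 with guides against dCas9-VP160 alone, with 1 at an unadjusted p under 0.05 (GPC3, adjusted p = 0.203), and DESeq2 and limma-voom also called 0. GPC3 stood at 19.0 ± 1.63 CPM with guides and 21.5 ± 0.617 CPM with dCas9-VP160 alone. The values of the 6 ranged from -0.49 (GPC2, SE 0.29) to 0.20 (GPC6, SE 0.13) on the log2 scale. SDC3 (0.13, SE 0.06, adjusted p = 0.222) and SDC2 (-0.01, SE 0.05, adjusted p = 0.951) were not called. Over all genes this comparison depended on the scaling, with 817 higher and 670 lower under TMM factors, against 517 higher and 1122 lower when libraries were scaled by their totals. Under library totals SDC1 was still called higher and SDC4 lower. DESeq2 called 270 higher and 90 lower.

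Because the members differ in exon length, their levels were compared with each other as CPM per kb of exon. Without plasmid GPC3 led at 35.8 ± 1.36 CPM per kb, followed by SDC2 at 26.3 ± 2.69 and SDC4 at 16.5 ± 1.33 (SD, n = 2), whose spread reached that of SDC3. SDC3 (13.2 ± 3.22), GPC4 (12.3 ± 1.49) and SDC1 (11.7 ± 2.70) came next and did not differ beyond their spread. GPC1 (5.28 ± 0.673), GPC5 (3.42 ± 0.284), GPC6 (2.79 ± 0.173) and GPC2 (0.788 ± 0.183) closed the order.

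In transfected cells SDC4 led instead, at 24.4 ± 0.393 CPM per kb with guides and 27.7 ± 0.202 with dCas9-VP160 alone. With guides SDC1 (19.3 ± 3.11) and SDC2 (18.7 ± 1.19) shared the next place within their spread, whereas with dCas9-VP160 alone SDC2 (18.9 ± 1.97) stood above SDC1 (14.7 ± 2.07). GPC3 lay at 7.0 ± 0.601 CPM per kb with guides and 7.93 ± 0.228 with dCas9-VP160 alone, within the spread of GPC4 with guides (6.64 ± 1.0) and of SDC3 with dCas9-VP160 alone (7.72 ± 2.17). Scaled by the longest transcript instead, GPC1 (7.75) stood above GPC3 (7.39) and SDC2 (22.6) above SDC1 (21.0) with guides.

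Syndecans made up most of the summed level in transfected cells, and the families were near parity without plasmid. Glypicans made up 24.2 ± 1.04% of the summed CPM per kb of the 10 members with guides, 24.8 ± 0.749% with dCas9-VP160 alone and 47.1 ± 1.18% without plasmid. GPC3 by itself made up 7.49 ± 0.365% with guides, 8.64 ± 0.0751% with dCas9-VP160 alone and 27.9 ± 0.187% without plasmid. The sum over the 10 members was 93.4 ± 3.48 CPM per kb with guides, 91.7 ± 1.84 with dCas9-VP160 alone and 128.1 ± 5.74 without plasmid. The syndecan sum was much the same in the 3 groups, at 70.8 ± 3.61, 69.0 ± 2.07 and 67.8 ± 4.55 CPM per kb in that order. These shares describe the chosen members and were not tested. Transcript levels do not give the amounts of protein or of heparan sulfate.

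**Figure D3:**
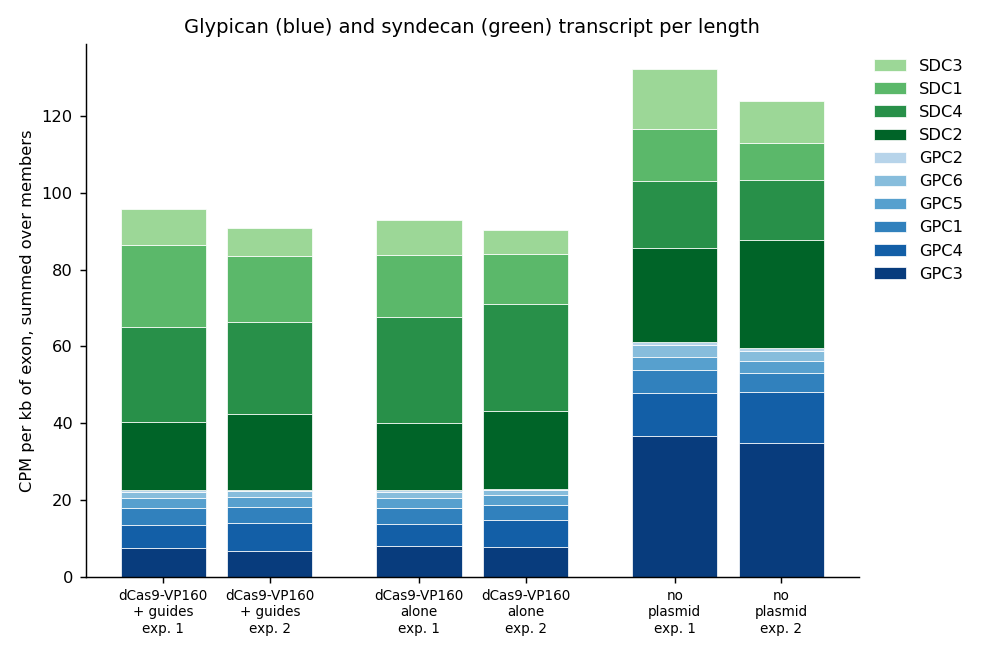
Summed CPM per kb of exon (from 0) of the 10 members in each group and experiment, glypicans in blue below and syndecans in green above. The glypican part is 22.6 with guides, 22.7 with dCas9-VP160 alone and 60.3 CPM per kb without plasmid, and GPC3 (darkest blue) holds most of the difference.

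The 2 batches of cells differed in 4 members over the 3 groups, where 24.2% of all genes were called (12% higher and 12.2% lower). SDC3 was lower in experiment 2 than in experiment 1 (log2 fold change -0.47, SE 0.05, adjusted p = 8.78e-08) and so was SDC1 (-0.36, SE 0.05, adjusted p = 6.30e-06). GPC4 was higher in experiment 2 (0.27, SE 0.05, adjusted p = 4.34e-04), as was SDC2 (0.19, SE 0.04, adjusted p = 9.30e-04). GPC3 was not called (-0.09, SE 0.05, adjusted p = 0.240). The direction of these 4 was the same in each of the 3 groups. For SDC3 the difference between experiments 2 and 1 was -0.32 with guides, -0.58 with dCas9-VP160 alone and -0.50 without plasmid. The GPC4 call was lost without the first replicates (0.20, adjusted p = 0.0747).

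Whether the members responded differently in the 2 experiments was tested with an interaction term on the 12 libraries, so its spread is technical. With edgeR 0 of the 10 members were called in any of the 3 comparisons, with a lowest adjusted p of 0.975, and limma-voom also called 0. At an unadjusted p under 0.05 there were 0 members with guides against no plasmid and 0 with dCas9-VP160 alone against no plasmid. There were 2 with guides against dCas9-VP160 alone, GPC6 (difference of log2 fold changes 0.53, SE 0.25) and SDC3 (0.27, SE 0.12), each with an adjusted p of 0.998 in edgeR. Of all 17975 genes in that comparison 716 had an unadjusted p under 0.05. Over all 17975 genes of that fit 0.0111% were called with dCas9-VP160 alone against no plasmid (0.00556% in each direction) and 0 in the other comparisons.

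Of the 6 glypican genes 4 lie in adjacent pairs. GPC3 and GPC4 are adjacent on chromosome X, 120255 bases apart on the same strand, and GPC5 and GPC6 are adjacent on chromosome 13, 353160 bases apart on the same strand. Both members of each pair were lower in transfected cells than without plasmid. The other neighbour of GPC3, the coiled-coil gene CCDC160, was higher with dCas9-VP160 alone than without plasmid (log2 fold change 1.27, SE 0.31, adjusted p = 0.00136), and with guides it was not called against no plasmid (0.22, SE 0.38, adjusted p = 0.658). DCT, a melanin enzyme gene beside GPC6, was higher with guides (1.97, SE 0.40, adjusted p = 1.88e-04) and with dCas9-VP160 alone (2.11, SE 0.39, adjusted p = 5.11e-05), at a low mean level.

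SYS1, a Golgi trafficking gene next to SDC4, was higher with guides (0.55, SE 0.07, adjusted p = 9.45e-08) and with dCas9-VP160 alone (0.46, SE 0.07, adjusted p = 2.03e-06). The neighbours of SDC1, LAPTM4A (-0.40 with guides and -0.41 with dCas9-VP160 alone) and PUM2 (-0.15 with guides and -0.20 with dCas9-VP160 alone), moved the other way from SDC1. GAL3ST4, a sulfotransferase gene 856 bases from GPC2, was higher with guides (1.27, SE 0.17, adjusted p = 3.51e-07) and with dCas9-VP160 alone (0.92, SE 0.17, adjusted p = 5.67e-05). STAG3, a cohesin gene 191 bases from GPC2 on its other side, was not called (-0.00016 with guides, adjusted p = 0.999, and -0.08 with dCas9-VP160 alone, adjusted p = 0.589). ANKMY1, beside GPC1, was not called with guides (-0.10, adjusted p = 0.426) or with dCas9-VP160 alone (0.07, adjusted p = 0.594). Of all genes 52.6% were called with guides and 51.2% with dCas9-VP160 alone.

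Several members overlap antisense genes. The labels call the libraries directional, whereas the library kit does not mark strand. The libraries were treated as unstranded, so reads there were not assigned to a strand. The antisense genes were scarce. The one with the highest mean, AL354811.1 within GPC6, averaged 1.03 CPM against 12.7 CPM for GPC6. The pseudogene SDC4P held 0 CPM in every library.

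Genes that build, supply or edit heparan sulfate, or release its core proteins, were examined as lists. The lists here and below were chosen with earlier results of these data known, so nothing is read from their counts or medians. In 5 lists covering the synthesis, supply, editing and release of heparan sulfate and its proteins, 49 of 54 genes were tested. With guides 8 of them were higher and 27 lower than without plasmid, with a median log2 fold change of -0.21. With dCas9-VP160 alone 7 were higher and 28 lower against no plasmid, with a median of -0.20. Among all genes 26.7% were higher and 25.9% lower with guides, and 26.6% were higher and 24.6% lower with dCas9-VP160 alone. These shares also apply to the single lists below. With dCas9-VP160 alone DESeq2 called 3 higher and 16 lower. Without the experiment as a block 15 were lower and none of the 49 was called higher with dCas9-VP160 alone, and 5 were higher and 16 lower with guides. Over all 19662 genes that setting called 3036 higher and 2528 lower with dCas9-VP160 alone, and 3229 higher and 2869 lower with guides.

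Chain polymerisation is the work of the EXT family. Of its 5 genes 3 fell and 2 were not called with dCas9-VP160 alone, and the same counts held with guides. EXT1, a subunit of the heparan sulfate polymerase, averaged 38.0 ± 3.92 CPM with guides, 43.8 ± 2.98 with dCas9-VP160 alone and 58.6 ± 4.99 without plasmid. Its log2 fold change against no plasmid was -0.62 with guides (SE 0.06, adjusted p = 3.0e-09) and -0.42 with dCas9-VP160 alone (SE 0.06, adjusted p = 1.47e-06). EXTL2 (-0.49 with guides and -0.56 with dCas9-VP160 alone) and EXTL3 (-0.33 and -0.34 in the same order) also fell, while EXT2, the partner subunit, was not called with dCas9-VP160 alone against no plasmid.

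Of 13 tested genes that sulfate or epimerise the chain, 8 fell and 5 were not called with dCas9-VP160 alone, and likewise with guides. They included the epimerase GLCE (-0.38 with guides and -0.49 with dCas9-VP160 alone), the N-sulfating NDST1 (-0.22 and -0.23) and the 3-O-sulfotransferase HS3ST3B1 (-0.68 and -0.49). Of 6 tested genes of the linker sugars that join chain to protein, 4 fell and 1 rose with dCas9-VP160 alone, with XYLT2, a xylosyltransferase that starts the chain, at -0.37 with guides and -0.50 with dCas9-VP160 alone. B3GAT3, which adds the last linker sugar, rose (0.31 with guides and 0.24 with dCas9-VP160 alone).

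Of 10 genes for nucleotide sugars and the sulfate donor PAPS, 4 rose and 3 fell with dCas9-VP160 alone. The Golgi transporter SLC35A3 rose (0.47 with guides and 0.33 with dCas9-VP160 alone), and the PAPS synthase PAPSS1 fell (-0.37 and -0.44). Of 15 tested genes that edit or release heparan sulfate proteins outside the cell, 2 rose and 10 fell with dCas9-VP160 alone. MMP2, a gelatinase, averaged 21.1 ± 4.14 CPM with guides, 19.98 ± 1.10 with dCas9-VP160 alone and 67.9 ± 7.27 without plasmid. The 6-O-sulfatase SULF1, which edits chains at the surface, averaged 26.4 ± 1.25, 27.0 ± 0.255 and 53.2 ± 1.70 CPM in the same order. FURIN, a protease that cleaves GPC3, fell by 0.68 on the log2 scale with guides and by 0.48 with dCas9-VP160 alone, and HPSE, which cuts heparan sulfate, fell by 0.33 and 0.56 in the same order.

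Proteoglycans outside the family also differed. Of 8 tested genes whose proteins can carry heparan sulfate, 6 fell and 1 rose with dCas9-VP160 alone, with a median of -0.62. The shares over all genes were 24.6% lower and 26.6% higher. Perlecan, HSPG2, a basement membrane proteoglycan, fell by 0.88 on the log2 scale with guides and by 1.02 with dCas9-VP160 alone. NRP1, a co-receptor of vascular growth factors, fell by 0.99 and 0.89, and COL18A1, the basement membrane collagen XVIII, by 0.76 and 0.74 in the same order. CD44, the hyaluronan receptor, rose like SDC1 and SDC4, to 108.8 ± 2.46 CPM with guides and 93.4 ± 2.39 with dCas9-VP160 alone, against 54.9 ± 2.11 CPM without plasmid (log2 fold change 0.99 with guides and 0.77 with dCas9-VP160 alone).

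In the competing chondroitin sulfate branch 5 of 16 genes were higher and 5 lower with dCas9-VP160 alone, with a median of 0.13. CSGALNACT2, which commits a linker to chondroitin, rose (0.71 with guides and 0.65 with dCas9-VP160 alone), and the sulfotransferase UST fell (-0.54 and -0.47). Of 14 GPI anchor genes 4 were higher and 3 lower with dCas9-VP160 alone. Among all genes 26.6% were higher and 24.6% lower with dCas9-VP160 alone, and both lists lay near these shares. With guides 8 of the 16 chondroitin sulfate genes were higher and 4 lower, and 4 of the 14 GPI anchor genes were higher and 4 lower. The shares over all genes with guides were 26.7% higher and 25.9% lower. The called GPI anchor genes included PIGA (0.91 with guides and 0.73 with dCas9-VP160 alone) and the remodelling gene PGAP3 (-0.72 and -0.84).

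Of 12 partners of the syndecan tails 4 were higher and 3 lower with dCas9-VP160 alone, near the 51.2% of all genes called. The endosomal GTPase gene RAB5A rose (0.32 with guides and 0.34 with dCas9-VP160 alone), and the kinase gene SRC fell (-0.29 and -0.38). Of 12 integrins and receptors that work beside syndecans, 8 fell and 4 were not called with dCas9-VP160 alone, with IGF1R at -0.67 with guides and -0.66 with dCas9-VP160 alone and the collagen receptor subunit ITGA2 at -0.46 and -0.69. The share of all genes that were lower with dCas9-VP160 alone was 24.6%.

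Of 34 tested hedgehog, WNT and FGF pathway genes, whose ligands glypicans bind, 3 were higher and 22 lower with guides (median -0.51), and 5 were higher and 22 lower with dCas9-VP160 alone (median -0.47). The shares over all genes were 26.7% higher and 25.9% lower with guides, and 26.6% higher and 24.6% lower with dCas9-VP160 alone. The hedgehog co-receptors CDON (-1.37 with guides and -1.24 with dCas9-VP160 alone), BOC (-1.26 and -1.17) and GAS1 (-1.76 and -1.38) all fell. PTCH1, the hedgehog receptor, averaged 21.2 ± 0.535 CPM with guides, 23.5 ± 1.20 with dCas9-VP160 alone and 47.3 ± 1.10 without plasmid. The WNT receptor FZD2 fell with guides (-1.17). GLI1, a hedgehog target gene below the level set for naming and added after its values were seen, averaged 1.79 ± 0.515 CPM with guides, 2.61 ± 0.680 with dCas9-VP160 alone and 1.10 ± 0.271 without plasmid. It was higher with dCas9-VP160 alone (1.24, SE 0.28, adjusted p = 6.76e-04) and not called with guides (0.71, SE 0.31, adjusted p = 0.0578).

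**Figure D4:**
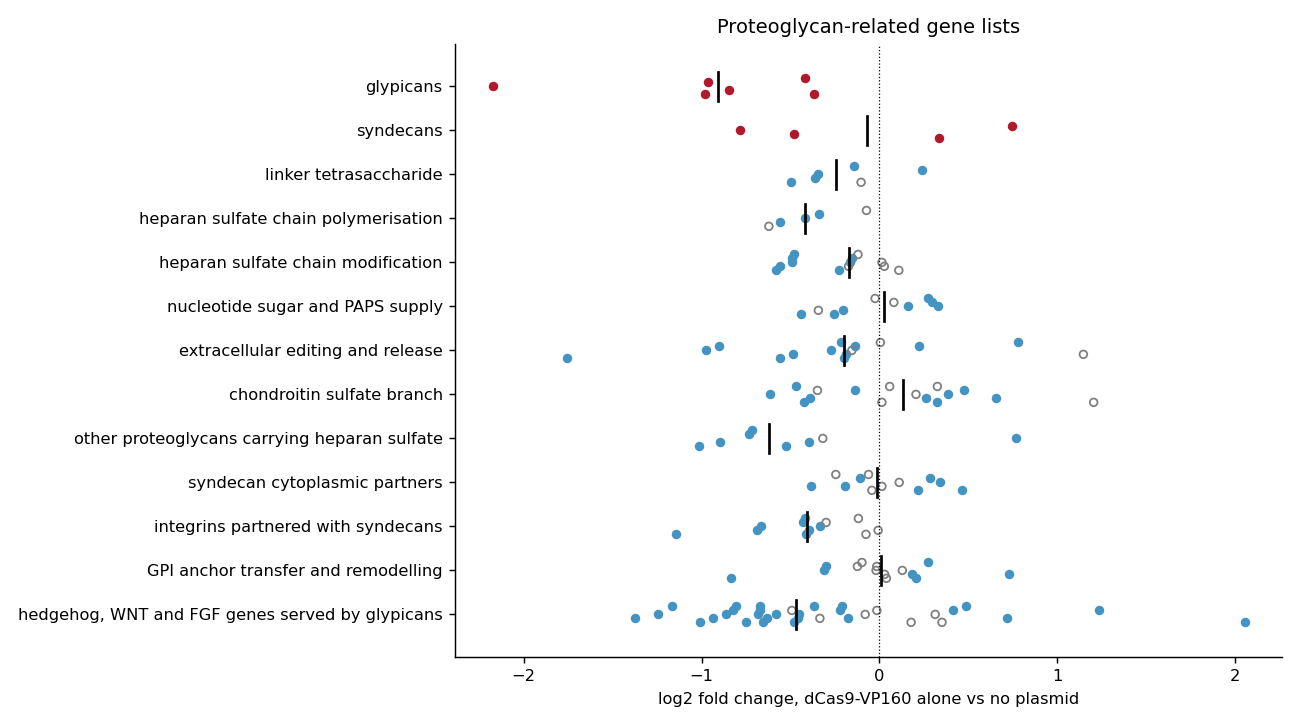
Log2 fold change with dCas9-VP160 alone against no plasmid for every tested gene of each list (filled where called, open where not), with a bar at the list's median and a dotted line at the median of all genes. Glypicans lie between -2.17 and -0.37, syndecans between -0.78 and 0.75. The filled point of GPC3 is a description and not a test.

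With guides against dCas9-VP160 alone, 5 of the 49 tested heparan sulfate genes rose and 1 fell, where 7.56% of all genes were called (4.16% higher and 3.41% lower). UGDH, which makes the glucuronic acid donor, rose to 133.1 ± 3.04 CPM with guides, against 102.8 ± 5.27 CPM with dCas9-VP160 alone (0.37, SE 0.05, adjusted p = 6.80e-06). SULF2, the sister of SULF1, rose to 194.1 ± 5.11 CPM with guides, against 164.7 ± 1.07 CPM (0.24, SE 0.04, adjusted p = 4.40e-04). SLC35B2, the Golgi transporter of PAPS (0.22), HS6ST2 (0.18) and EXT2 (0.13) also rose, and FURIN fell (-0.19). The 6 calls became 2 in DESeq2, 3 without the first library of experiment 1 with guides, 3 without the first library of experiment 1 with dCas9-VP160 alone and 2 without the second library of experiment 2 without plasmid. CD44 rose as well (0.22, SE 0.05, adjusted p = 0.00589). Of the 34 tested hedgehog, WNT and FGF pathway genes 2 were higher and 1 lower. FGF13 (0.34, SE 0.08, adjusted p = 0.0069) and WNT11 (0.29, SE 0.09, adjusted p = 0.0486) rose, and GAS1 fell (-0.38, SE 0.10, adjusted p = 0.0174). Of the 12 partners of the syndecan tails 2 were higher and 0 lower, namely CASK (0.19, adjusted p = 0.0201) and EZR (0.13, adjusted p = 0.0309).

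For the 9 members other than GPC2, whose level was too low, the most similar genes were sought by Pearson correlation of log2(CPM + 1) over the 12 libraries among 10732 genes with a mean of at least 10 CPM. The libraries share 3 groups and 2 batches, and the correlations describe that shared structure. GPC3 was closest to TSHZ1, a zinc finger gene (r = 0.993), and to KBTBD7 (r = 0.990). TSHZ1 averaged 17.1 CPM with guides, 18.6 with dCas9-VP160 alone and 40.2 without plasmid. SDC4 was closest to ODC1, the first enzyme of polyamine synthesis, and to SPHK1, a sphingosine kinase (r = 0.986 for each). SPHK1 averaged 37.4 CPM with guides, 42.5 with dCas9-VP160 alone and 16.9 without plasmid, the same order as SDC4. GPC4 was closest to APPL2 (r = 0.987), SDC2 to ERGIC1 (r = 0.985), SDC1 to ZDHHC5 (r = 0.970), GPC6 to ALDOC (r = 0.968), GPC5 to TNS3 (r = 0.964) and GPC1 to CLSTN3 (r = 0.953). SDC3 correlated at r = 0.980 with both TMEM132A and WDR6.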

How the data were processed

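RNA was sequenced from 12 libraries in 3 groups. The authors deposited whole-number read counts per gene for each library. Per the submitters' processing notes, Trim Galore 0.3.7, STAR 2.6.0c, Picard 2.17.1 and DESeq2 1.16.1 were used with hg38, while the counting program and annotation release were not stated in the sources used here. A second deposited table of 97 genes gives, per the file headers, p-values, log2 fold changes with SE, baseMean (a normalised signal) and the Wald score. Its Wald statistic for GPC3 with guides equals the absolute log2 fold change less 1, divided by its SE, with the sign kept.

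Technical replicates were summed to 6 libraries, giving n = 2 experiments per group. The test was the robust quasi-likelihood one of edgeR 4.0.16 under R 4.3.3 (TMM scaling, low counts removed by filterByExpr, experiment as a block because the labels name separate batches of cells, 2 residual degrees of freedom, median prior of 24 and common dispersion of 8.88e-04). Benjamini-Hochberg adjustment ran over 19662 genes, with calls under 0.05. Each SE was derived from the fold change and its F statistic, so it is approximate. As a check of the pairing, differences between experiments correlated between groups at r = 0.399 to 0.414 over 16920 genes. Symbols matched 41124 of 60604 identifiers, and GENCODE v29 gave the positions. The 92 spike-in sequences were left out. Alternatives covered scaling, filters, DESeq2 1.42.0, limma 3.58.1, the block and left-out libraries. The members and gene lists were chosen with earlier results of these data known. Named were all members, up to 4 called genes per list and comparison with a mean of at least 5 CPM and the largest change, the 2 most similar genes per member, and neighbours. Counts cover sampling of reads only, and 3 counts correspond to 0.250 to 0.439 CPM.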

Additional observations from a re-analysis of the deposited data

Results flagged for a closer look

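For SDC2, both libraries with guides lay above both with dCas9-VP160 alone in experiment 1 and below both in experiment 2. In experiment 1 it held 82.6 and 79.5 CPM with guides, above 79.4 and 78.9 CPM with dCas9-VP160 alone. In experiment 2 it held 91.2 and 85.9 CPM with guides, below 91.5 and 92.1 CPM with dCas9-VP160 alone. The difference between the log2 fold changes of experiments 2 and 1 was -0.08311 (SE 0.11), and the interaction test in edgeR did not call it (adjusted p = 0.998). GPC6 also had log2 fold changes of opposite sign in this comparison (-0.05 in experiment 1 and 0.46 in experiment 2), with libraries that overlapped in experiment 1. In each of 30 groups of 4 libraries the highest and lowest value of a member were compared with the rest of the group by Dixon's criterion. No library met it. The 4 libraries of a group are 2 technical replicates from each of 2 batches. Differences between batches widen their range, so the criterion can miss a library that departs from its own batch.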

How the results depend on the processing

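Of 1087 values of single members under the alternatives, 1031 kept their direction and side of the threshold, 36 lost a call, 2 gained one and 18, none of them called, changed sign. These values include GPC3 against no plasmid, treated as the value that led to the choice of the family. The count of members called with guides against dCas9-VP160 alone, 2, was 1 with RLE size factors, without mitochondrially encoded genes, in DESeq2, without experiment 1 and without experiment 2, and 1 to 2 with single libraries or replicates left out. Without the experiment as a replicate block it was 0, heparan sulfate genes called were 15 with dCas9-VP160 alone against no plasmid (35 with the block), 0 with guides against dCas9-VP160 alone (6) and 21 with guides against no plasmid (35), and calls were lost for SDC1 with dCas9-VP160 alone against no plasmid (adjusted p = 0.184) and with guides against dCas9-VP160 alone (0.653), for SDC4 with guides against dCas9-VP160 alone (0.693) and for GPC1 with guides against no plasmid (0.118). Without the block, calls over all 19662 genes also fell. They numbered 1 with guides against dCas9-VP160 alone (1487 with the block) and 5564 with dCas9-VP160 alone against no plasmid (10070). With guides against no plasmid they numbered 6098 (10347). With guides against dCas9-VP160 alone, heparan sulfate calls were 2 in DESeq2, 2 without experiment 1 and 1 without experiment 2, and with dCas9-VP160 alone against no plasmid 19 in DESeq2. With libraries or replicates left out they ran from 2 to 7 with guides against dCas9-VP160 alone, from 23 to 36 with dCas9-VP160 alone against no plasmid and from 23 to 36 with guides against no plasmid.

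Sign changes with guides against dCas9-VP160 alone were in GPC5 with library totals (-0.0088), in GPC6 without experiment 2 (-0.062) and in SDC2 with RLE size factors (0.0021), without mitochondrially encoded genes (0.0013), in DESeq2 (0.0026) and without experiment 2 (0.033). With libraries or replicates left out, that comparison gave -0.95 to 0.048 in GPC2, -0.014 to 0.13 in GPC4, -0.034 to 0.092 in GPC5 and -0.045 to 0.025 in SDC2, and experiment 2 against 1 gave -0.22 to 0.026 in GPC3. Under limma-voom the interaction of GPC2 with experiment was -0.31 for dCas9-VP160 alone against no plasmid and 0.31 for guides against dCas9-VP160 alone. The cause was not tested, except that left-out libraries mean fewer counts. Low counts limit GPC2.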
